A study of Mus musculus with 19 samples.

Results

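The 10 genes described here are transcription factors, a growth factor and an RNA-binding protein that mark the naive and the primed state of pluripotent cells. They were chosen by gene symbol from knowledge of the 2 states, with earlier results of these data known, and comprise Klf2, Klf4, Klf5, Esrrb and Tfcp2l1 for the naive state, Fgf5, Otx2 and Pou3f1 for the primed state, and Sall4 and Lin28a, which are expressed in both. All 10 were found, with 13 transcripts among the 30455 transcripts (23337 symbols) of the count table, and a gene with several transcripts is represented by the one with the highest mean count (NM_001159500 for Esrrb, NM_175303 for Sall4). RNA was sequenced in 11 libraries. Cystic EBs, which are hollow aggregates grown from mouse ES cells without LIF, were taken at d10 and d15 from clone A9 (XY) and from clone JN (XX), both of a C57BL/6 and 129 cross, with 1 library per clone and day. The tissues came from FVB (FVB/N) embryos, each library from a whole litter pooled. They were VYS endoderm (ysE) at E9.25 (2 libraries) and E12.5 (1 library), VYS mesoderm with its vessels at E9.25 (2 libraries) and fetal liver at E12.5 (2 libraries). The p-values measure the spread between pools of litters and between EB libraries, which differ in clone, day and library protocol. EBs hold both clones and both days in the comparisons with tissues. There each EB library counts as independent although they come from 2 clones only, so these p-values overstate the replication of EBs. CpG methylation was measured in E12.5 ysE and E12.5 liver of F1 embryos from reciprocal crosses of CAST/EiJ and FVB/N (CxF and FxC) and in d15 EBs of ES clones from the same crosses, CF-C2 and FC-A2, with 1 library per cross. H3K4me3 was measured in 1 library of whole VYS from E12.5 FVB (FVB/N) embryos of 2 pooled litters. The study asked whether cystic EBs resemble ysE, the absorptive and secretory outer layer of the yolk sac.

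In the early embryo the naive state is that of the preimplantation epiblast and of ES cells kept with LIF. Klf2, Klf4 and Klf5 are zinc finger factors, Esrrb is an orphan nuclear receptor and Tfcp2l1 is a grainyhead-related factor acting below LIF signalling, and together they hold up the core factors Pou5f1, Sox2 and Nanog. When the epiblast implants it loses these genes and gains Otx2, Pou3f1 (Oct6) and the ligand Fgf5. Several of the 10 also work outside pluripotent cells, Klf2 in endothelium, Klf4 and Klf5 in epithelia, Esrrb in trophoblast, Tfcp2l1 in epithelial ducts, Otx2 and Pou3f1 in the nervous system, and Lin28a, which blocks the maturation of let-7 miRNAs, in many tissues of the early embryo. In bulk RNA, fewer cells of a type and less RNA per cell cannot be told apart.

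The start regions of 3 genes are shown, that of Otx2 because it had many methylated reads in ysE and no H3K4me3 peak, that of Fgf5 because it had few methylated reads there and a peak, and that of Klf4 because it holds the most CpGs of the windows listed for the 10 genes. Each is the 250 bases before the start, 5′ to 3′ on the strand of the gene, from RefSeq on GRCm38.p6 (the mm10 assembly), with CpGs in capitals. The first is that of Otx2 (its start farthest 5′, chr14:48667645-48667894, minus strand), the second that of Fgf5 (chr5:98253934-98254183, plus strand) and the third that of Klf4 (chr4:55532476-55532725, minus strand). The window of Otx2 has 6 CpGs, the median of all 32851 promoters in that table, while those of Fgf5 and Klf4 have 24 and 32, more than 88.0% and 95.4% of them.
Otx2: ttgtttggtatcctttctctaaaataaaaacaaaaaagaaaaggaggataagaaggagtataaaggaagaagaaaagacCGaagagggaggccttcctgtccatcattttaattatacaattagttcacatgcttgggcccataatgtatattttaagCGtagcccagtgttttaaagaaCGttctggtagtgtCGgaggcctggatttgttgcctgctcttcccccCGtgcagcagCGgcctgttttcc
Fgf5: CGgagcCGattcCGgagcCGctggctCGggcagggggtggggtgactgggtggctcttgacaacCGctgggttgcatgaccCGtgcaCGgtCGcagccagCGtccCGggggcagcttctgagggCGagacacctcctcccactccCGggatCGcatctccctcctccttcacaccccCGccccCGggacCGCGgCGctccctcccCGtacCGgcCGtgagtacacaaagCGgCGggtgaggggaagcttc
Klf4: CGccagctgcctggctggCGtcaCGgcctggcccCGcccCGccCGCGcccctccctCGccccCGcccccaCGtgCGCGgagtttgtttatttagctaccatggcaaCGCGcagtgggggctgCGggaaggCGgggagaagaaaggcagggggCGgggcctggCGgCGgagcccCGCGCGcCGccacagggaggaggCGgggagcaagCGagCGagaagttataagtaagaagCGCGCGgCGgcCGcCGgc
Starts were listed for 7 of the 10 genes, all but Klf5, Pou3f1 and Sall4.

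Counts summed over transcripts ranged from 40453779 (E12.5 ysE) to 169981821 (E9.25 ysE B). The library protocol differed: ScriptSeq was used for A9 EBs and liver, dUTP for JN EBs and for both E9.25 tissues, and a method without strand for E12.5 ysE, so in EBs the clone, the sex and the protocol cannot be told apart, and the same holds for stage and protocol in ysE. The 8 markers of visceral endoderm summed to 45786 RPKM (reads per kilobase of transcript, scaled by the authors to the depth of the library) in E12.5 ysE, 10313 to 11703 in E9.25 ysE, 1120 to 1979 in mesoderm, 1605 to 2903 in liver and 150 to 1219 in EBs, and all 8 were lower in EBs than in E9.25 ysE. Afp held 1396 and 2471 RPKM of the liver sums. In the test given further below, 3 of the 8 were higher in EBs than in liver and 3 lower (median log2 1.12). Of all transcripts, 24.6% were higher and 20.9% lower there. The 8 erythroid markers summed to 36240 to 46013 RPKM in mesoderm, 2270 to 3327 in liver, 896 to 1072 in E9.25 ysE, 237 in E12.5 ysE and 12.2 to 135 in EBs. The 8 markers of neural ectoderm summed to 10.7 to 22.7 RPKM in EBs against at most 0.783 in ysE, 4.38 and 5.38 in mesoderm and 5.94 and 13.2 in liver, so the sums of EBs and liver overlapped. Nes held 12.4 (liver A) and 5.82 (liver B) RPKM of the liver sums. In the test given further below, 6 of the 8 were higher in EBs than in liver and 0 lower (median log2 4.77). The part of the markers in the levels of the 10 genes was not tested.

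**Figure D1:**
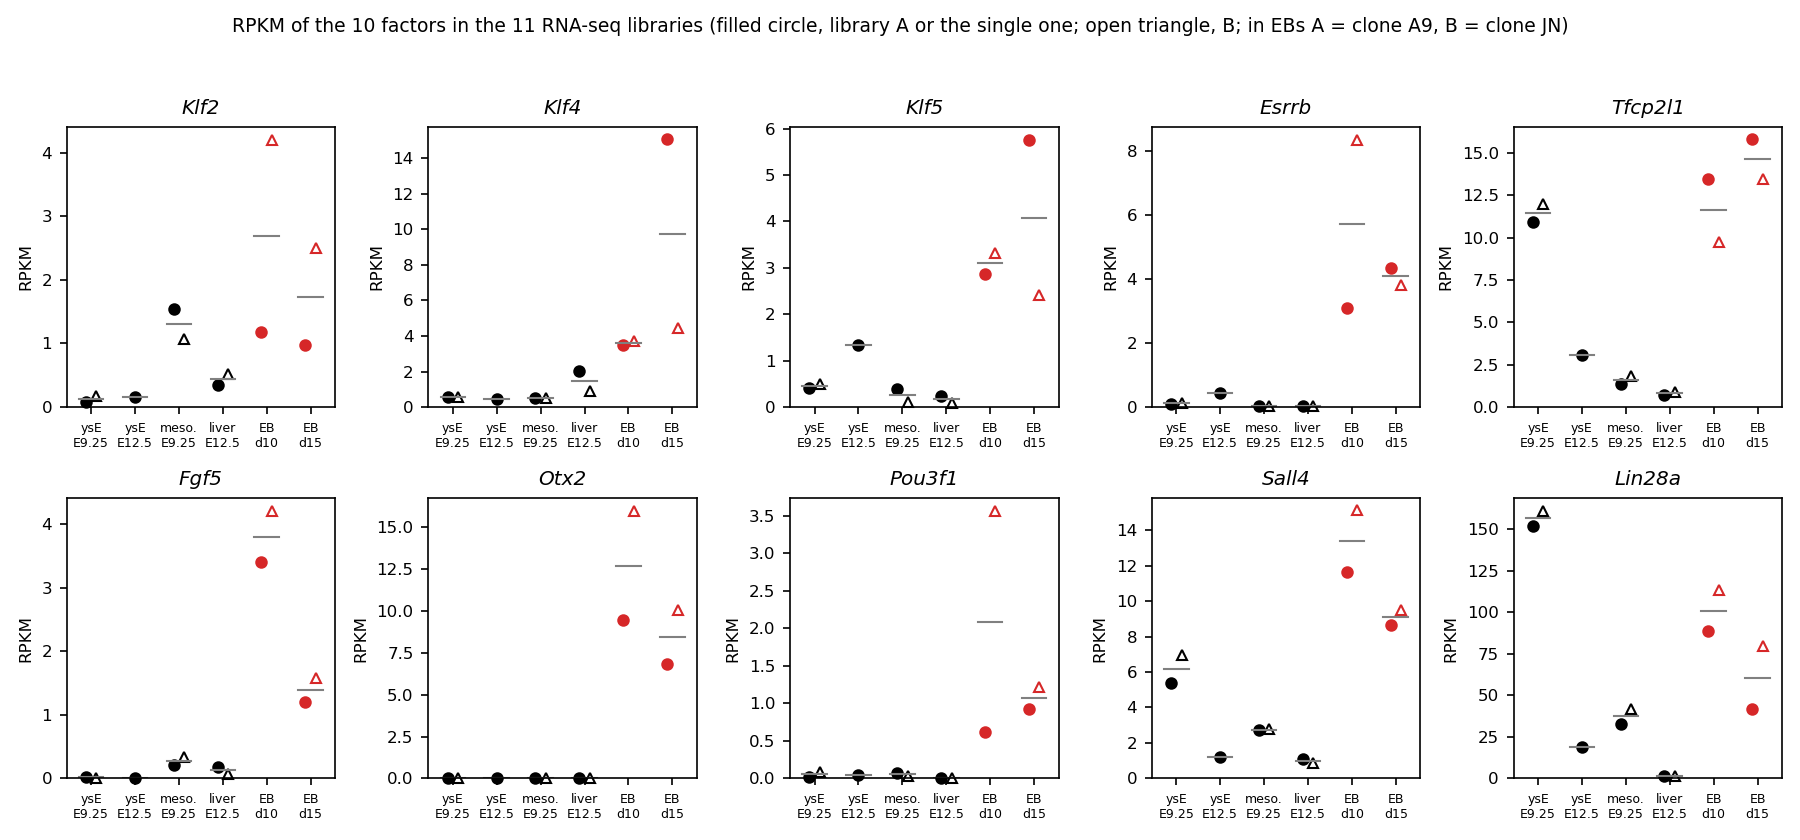
RPKM (linear axis from 0) of the 10 genes in every RNA-seq library, by tissue and stage or day, with a grey bar at the mean of each group. Otx2 and Pou3f1 stand near 0 in each of the 7 tissue libraries and Fgf5 in ysE, while in E9.25 ysE Tfcp2l1 lies within the range of EBs and Lin28a above it.

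Among the naive factors, Klf2, Klf4, Klf5 and Esrrb had lower RPKM in ysE than in EBs, which for Klf5 passed the test given further below at E9.25 and not at E12.5, while Tfcp2l1 was high in E9.25 ysE too. Klf2 measured 1.18 RPKM (A9) and 4.21 (JN) in d10 EBs and 0.972 (A9) and 2.495 (JN) in d15 EBs, against 0.074 and 0.169 in E9.25 ysE, 0.153 in E12.5 ysE, 1.54 and 1.08 in mesoderm and 0.346 and 0.527 in liver. EBs and mesoderm overlapped, and ysE was lowest. Klf4 measured 3.50 (A9) and 3.71 (JN) at d10 and 15.1 (A9) and 4.45 (JN) at d15, against 0.572 and 0.559 in E9.25 ysE, 0.472 in E12.5 ysE, 0.498 and 0.493 in mesoderm and 2.03 and 0.930 in liver. No tissue library reached the lowest EB, and the d15 A9 library stood far above the other EBs. In that library the 7 trophoblast markers also had their highest sum among EBs, 121 RPKM against 18.9 to 42.0. Krt7 held 69.4 RPKM of it (10.4 to 26.5 in the other EBs) and Tpbpa 25.4 (0.024 to 0.634). Elf5 was at 2.11 against 0.014 to 0.058, and Tfap2c, Ascl2 and Hand1 were also highest there. Cdx2, at 2.27, lay within the range of the other EBs (1.05 to 4.09). These genes were named after their values were seen, and their part in the level of Klf4 was not tested. The same sum was 81.3 and 94.1 RPKM in E9.25 ysE and 321 in E12.5 ysE, where Klf4 was low. Nearly all of it there was Krt7 (75.4, 86.3 and 319 RPKM), with Elf5 and Tpbpa at 0.049 or less.

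Klf5 measured 2.88 (A9) and 3.33 (JN) RPKM at d10 and 5.76 (A9) and 2.41 (JN) at d15, against 0.418 and 0.488 in E9.25 ysE, 1.34 in E12.5 ysE, 0.399 and 0.108 in mesoderm and 0.243 and 0.084 in liver. Every EB was above every tissue library. Esrrb measured 3.08 (A9) and 8.35 (JN) at d10 and 4.35 (A9) and 3.82 (JN) at d15, against 0.107 and 0.131 in E9.25 ysE, 0.453 in E12.5 ysE and at most 0.045 in mesoderm and liver. Its second transcript (NM_011934) had nearly the same mean count (761 against 762 reads). Tfcp2l1 measured 13.4 (A9) and 9.77 (JN) at d10 and 15.8 (A9) and 13.4 (JN) at d15, with 10.9 and 12.01 in E9.25 ysE lying inside that range. It was 3.09 in E12.5 ysE, 1.37 and 1.82 in mesoderm and 0.707 and 0.913 in liver.

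Otx2 and Pou3f1 were near absent from all 7 tissue libraries, and Fgf5 was near absent from ysE and low in mesoderm and liver. Fgf5 measured 3.40 (A9) and 4.21 (JN) RPKM at d10 and 1.21 (A9) and 1.58 (JN) at d15, against 5 reads in either E9.25 ysE library, no read in E12.5 ysE, 0.213 and 0.331 RPKM in mesoderm and 0.185 and 0.073 in liver. Against the floor of 3 reads over the group that a count of 0 allows, it was at least 104-fold higher in EBs than in E12.5 ysE. Otx2, the homeobox factor of anterior epiblast and forebrain, measured 9.46 (A9) and 15.98 (JN) at d10 and 6.81 (A9) and 10.1 (JN) at d15. It had 0 and 4 reads in E9.25 ysE, 1 read in E12.5 ysE, 4 and 11 in mesoderm and none in liver, against which EBs were at least 882-fold higher. The ratio to E12.5 ysE was 925 with a 95% interval of 166 to 36530, which covers counting error only. Pou3f1, a POU factor, measured 0.615 (A9) and 3.56 (JN) at d10 and 0.923 (A9) and 1.22 (JN) at d15, against at most 0.080 in ysE and mesoderm and no read in liver, where the bound was at least 230-fold. Without d10 JN, the highest EB, this bound was at least 132-fold, and with a single liver library at least 111-fold (without A) or 119-fold (without B), as that of Otx2 was at least 424-fold or 457-fold. All EBs were above all tissues for each of the 3 genes.

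Sall4 and Lin28a were present in every tissue. Sall4, a zinc finger factor of ES cells and early progenitors, measured 11.7 (A9) and 15.1 (JN) RPKM at d10 and 8.66 (A9) and 9.51 (JN) at d15, against 5.37 and 6.96 in E9.25 ysE, 1.21 in E12.5 ysE, 2.74 and 2.76 in mesoderm and 1.11 and 0.847 in liver. The lowest EB was above the highest ysE library. Lin28a had the highest level of the 10 genes, 88.7 (A9) and 113 (JN) at d10, 41.5 (A9) and 79.7 (JN) at d15, and 152 and 161 in E9.25 ysE, above every EB. It was 18.9 in E12.5 ysE, 32.7 and 41.9 in mesoderm and 1.30 and 1.15 in liver. The d15 A9 library fell below the higher mesoderm library.

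The groups were then compared in edgeR by quasi-likelihood, and p-values were adjusted after Benjamini and Hochberg over all 24858 transcripts tested (adjusted p, called at 5%). All 10 genes passed the filter on low counts. The SE given is the absolute log2 fold change over the square root of the F statistic of this test, an approximation. A fold change in this test is on the TMM scale, which sets libraries by the bulk of transcripts and shifts ratios from those of RPKM. The 4 comparisons with EBs share the same 4 EB libraries.

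Against E9.25 ysE, 7 of 10 genes were higher in EBs, where 27.1% of all transcripts were higher, and 1 was lower, where 23.2% of all were lower. The median log2 fold change was 3.43 over the 10 genes and 0.17 over all transcripts. Otx2 had the largest difference (log2 9.91 ± 0.90 SE, adjusted p = 8.43e-05). It was followed by Fgf5 (7.08 ± 0.87, adjusted p = 2.16e-04), Esrrb (4.92 ± 0.53, adjusted p = 1.10e-04), Pou3f1 (4.48 ± 0.98, adjusted p = 0.00554), Klf2 (3.72 ± 0.74, adjusted p = 0.00285), Klf4 (3.14 ± 0.74, adjusted p = 0.00656) and Klf5 (2.56 ± 0.67, adjusted p = 0.0113). Lin28a was lower in EBs (log2 -1.41 ± 0.32, adjusted p = 0.00575). Tfcp2l1 (log2 -0.25 ± 0.24, adjusted p = 0.390) and Sall4 (0.42 ± 0.26, adjusted p = 0.204) did not pass. With library totals in place of TMM factors, a scale on which the median of all transcripts was 0.75 and 76.2% of calls were higher (53.9% with TMM), Lin28a did not pass (log2 -0.82, adjusted p = 0.0649), Sall4 passed as higher (1.01, adjusted p = 0.0133) and Tfcp2l1 changed sign (0.33). Klf4 and Klf5 rested on having both ysE libraries, with adjusted p = 0.0511 and 0.0793 without A and 0.0551 and 0.0689 without B. Without d15 A9 the difference of Klf4 was log2 2.36, and without d10 JN that of Pou3f1 was 3.68. Without ysE B, which held all 4 reads of Otx2 in this group, those of Klf2 and Pou3f1 were 4.48 and 5.72, and without ysE A that of Otx2 was 9.23. Over all settings tried, the difference of Otx2 ran from log2 9.23 to 13.6, a range wider than its SE.

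Against E12.5 ysE, 9 of 10 were higher and 0 lower, where 21.1% of all transcripts were higher and 18.8% lower. The differences outside Fgf5 and Otx2 were largest for Pou3f1 (log2 4.99 ± 1.47 SE, adjusted p = 0.0264), Klf4 (3.48 ± 1.05, adjusted p = 0.0257), Klf2 (3.48 ± 1.04, adjusted p = 0.0249), Esrrb (3.08 ± 0.65, adjusted p = 0.00502) and Sall4 (2.86 ± 0.41, adjusted p = 6.68e-04). Lin28a (1.73 ± 0.49, adjusted p = 0.0199) and Tfcp2l1 (1.72 ± 0.35, adjusted p = 0.00409) were higher here too, and Fgf5 and Otx2 passed with adjusted p = 0.00145 and 8.87e-04. Klf4 was higher by 2.66 without d15 A9 and Pou3f1 by 4.19 without d10 JN. Klf5 did not pass (1.07 ± 0.83, adjusted p = 0.320). As E12.5 ysE is a lone library, its spread was taken from the other groups. No EB library was made by its protocol, so tissue and protocol cannot be told apart in this comparison. In a fit of these 5 libraries alone Klf2, Klf4, Pou3f1 and Lin28a were no longer called. The share of all transcripts called in that fit is not given, so this loss cannot be read as particular to these genes. Without TMM factors 71.6% of all calls were higher, against 52.9% with them.

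Against liver, 10 of 10 were higher in EBs, where 24.6% of all transcripts were higher and 20.9% lower. Esrrb (log2 6.87 ± 0.60 SE, adjusted p = 4.77e-05) and Lin28a (5.70 ± 0.46, adjusted p = 3.21e-05) had the largest fitted differences among genes with reads in liver. Klf5 (4.12 ± 0.75), Fgf5 (3.98 ± 0.72), Tfcp2l1 (3.69 ± 0.29) and Sall4 (3.19 ± 0.31) came next. Klf2 (2.01 ± 0.67, adjusted p = 0.0339) and Klf4 (1.86 ± 0.68, adjusted p = 0.0494) were near the threshold. Within the ScriptSeq protocol (A9 EBs and liver) Klf2 had log2 0.999 (adjusted p = 0.121) and Klf4 2.36 (adjusted p = 0.0546). With size factors of DESeq2 in place of TMM, Klf4 missed the threshold (1.79, adjusted p = 0.0572). Neither passed without liver A (Klf2 1.76, Klf4 2.56) or without liver B (2.32 and 1.39). Klf2 also missed the threshold without d10 JN (1.47, adjusted p = 0.0531). Klf4 had log2 1.03 without d15 A9 (adjusted p = 0.0385), and Klf5 and Fgf5 had 5.12 and 4.83 without liver A. Both Klf2 and Klf4 missed the threshold without d15 JN (1.98, adjusted p = 0.0561, and 2.04, adjusted p = 0.0539).

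Against mesoderm, 8 of 10 were higher in EBs and 0 lower, where 13.9% of all transcripts were higher and 15.0% lower. Otx2 (log2 8.09 ± 0.80 SE), Esrrb (6.92 ± 0.59) and Pou3f1 (4.81 ± 0.997) led, followed by Klf5 (3.73 ± 0.72), Klf4 (3.65 ± 0.76), Fgf5 (3.12 ± 0.67), Tfcp2l1 (2.91 ± 0.28) and Sall4 (1.90 ± 0.28). Klf2 did not pass (0.63 ± 0.62, adjusted p = 0.460), nor did Lin28a (0.98 ± 0.35, adjusted p = 0.0618). Lin28a passed with dUTP libraries only (1.25, adjusted p = 0.0179) and without d15 A9 (1.22, adjusted p = 0.00730), and also without TMM factors (1.22, adjusted p = 0.0334). With a single mesoderm library Klf4, Fgf5 and Pou3f1 missed the threshold either way and Klf5 without B. The share of all transcripts called in those fits is not given. Klf4 had log2 2.85 without d15 A9, Pou3f1 4.01 without d10 JN, Klf5 4.90 without mesoderm A and 3.09 without B, and Otx2 8.88 without B. Without TMM factors 64.6% of all calls were higher, against 48.1% with them.

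**Figure D2:**
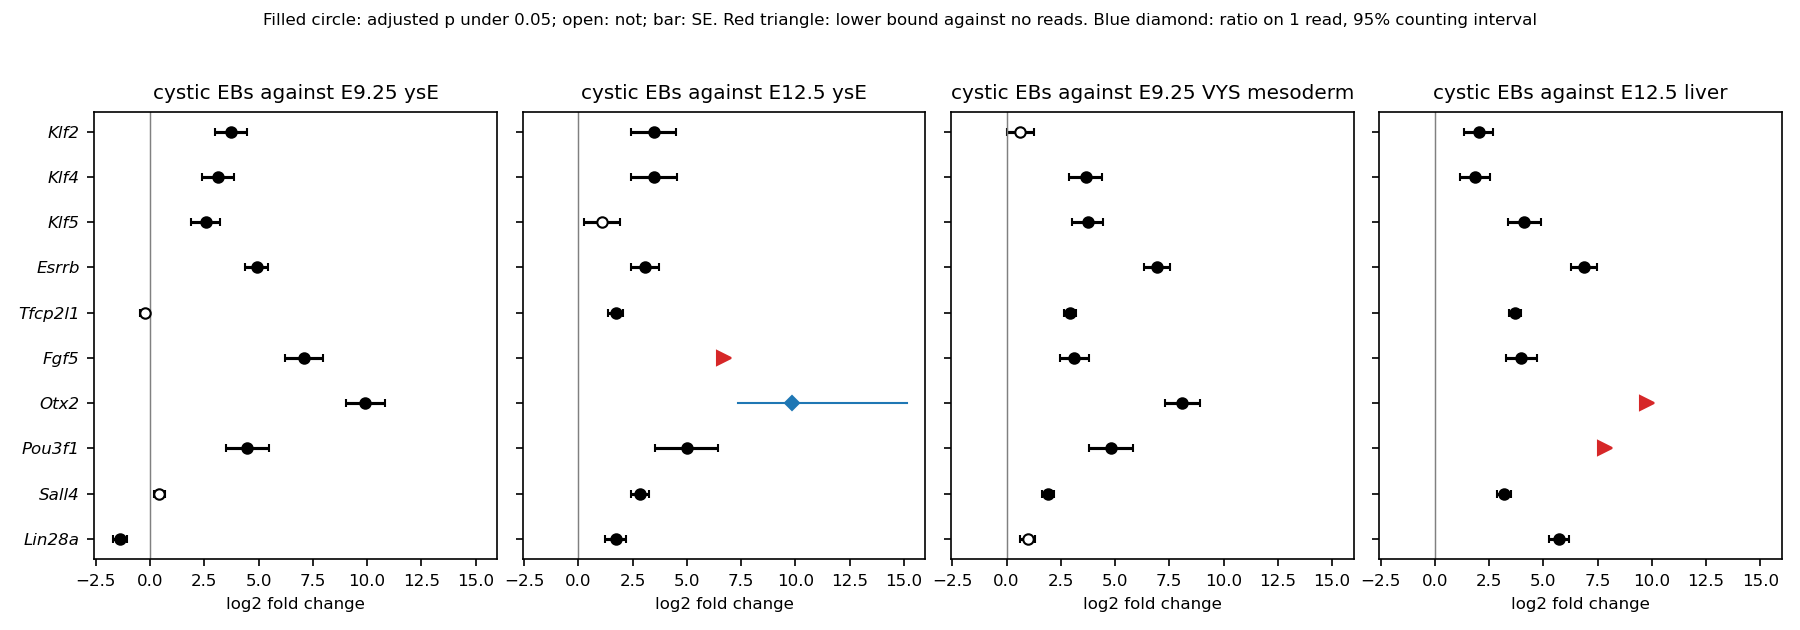
Log2 fold change of cystic EBs against each of the 4 tissue groups (x axis) for the 10 genes, with the SE as bar. Lin28a against E9.25 ysE is a filled point left of 0 (-1.41), the triangles are bounds against groups without a read, and the diamond is the ratio of Otx2 to a single read with its counting interval.

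Between the layers of the E9.25 yolk sac, 4 genes were higher in ysE than in mesoderm and 2 were lower, where 13.7% and 16.9% of all transcripts were. Tfcp2l1 was higher by log2 3.16 ± 0.30 SE (adjusted p = 2.02e-04), Lin28a by 2.38 ± 0.41 (adjusted p = 0.00219), Esrrb by 2.01 ± 0.51 (adjusted p = 0.0157) and Sall4 by 1.48 ± 0.30 (adjusted p = 0.00549). Fgf5 (log2 -3.96 ± 0.82, adjusted p = 0.00556) and Klf2 (-3.09 ± 0.76, adjusted p = 0.0131) were lower. Both libraries of either layer were on the same side for these 6 genes, which the test had picked from the same libraries. This adds no support to the test. Endothelial markers, all 6 measured, summed to 164 to 178 RPKM in mesoderm and 6.34 to 8.85 in ysE, and their part in the level of Klf2 was not tested. Esrrb missed the threshold without ysE B (adjusted p = 0.0765), mesoderm A (0.0595) or mesoderm B (0.108), Klf2 without ysE A (0.101) or mesoderm A (0.0611), Fgf5 without ysE B (0.0578) and Sall4 without mesoderm A (0.0510). Without ysE B the difference of Klf2 was log2 -3.82. Without TMM factors 29.4% of all calls were higher in ysE, against 44.7% with them.

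From E9.25 to E12.5 ysE, 3 genes were lower and 0 higher, where 4.57% of all transcripts were lower and 3.90% higher. Lin28a was lower by log2 -3.13 ± 0.56 SE (adjusted p = 0.0123), Sall4 by -2.44 ± 0.42 (adjusted p = 0.0102) and Tfcp2l1 by -1.97 ± 0.37 (adjusted p = 0.0147). Esrrb (1.84 ± 0.56, adjusted p = 0.0756) and Klf5 (1.48 ± 0.82, adjusted p = 0.290) had higher values at E12.5 and did not pass. In a fit of these 3 libraries alone both were called as higher (1.98 and 1.62). Its spread came from the E9.25 libraries alone, and the share of all transcripts called in it is not given. The stages differ in library protocol, E12.5 had 1 library, and without ysE A only Sall4 passed and without ysE B none. With size factors of DESeq2 58.6% of all calls were higher at E12.5, against 46.0% with TMM.

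Between E12.5 ysE and liver, 5 genes were higher in ysE and 1 was lower, where 22.6% and 23.7% of all transcripts were. Lin28a (log2 3.98 ± 0.47 SE, adjusted p = 2.15e-04), Esrrb (3.79 ± 0.61, adjusted p = 9.85e-04), Klf5 (3.05 ± 0.84, adjusted p = 0.0145) and Tfcp2l1 (1.97 ± 0.32, adjusted p = 0.00114) were higher in ysE. Pou3f1, with 5 reads in ysE and none in liver (adjusted p = 0.0499), passed as higher and Fgf5, with none in ysE and 42 and 14 in liver (adjusted p = 0.0189), as lower. Pou3f1 missed the threshold without liver A (adjusted p = 0.128), without liver B (0.110) and without TMM factors (0.0600), Fgf5 without liver A (0.0530) and Klf5 without liver B (0.0734). Without liver A the difference of Klf5 was log2 4.05. Without TMM factors 37.7% of all calls were higher in ysE, against 48.8% with them. The spread of the lone ysE library was again taken from the other groups. It was made by a method without strand and liver with ScriptSeq, so tissue and protocol cannot be told apart here.

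Within EBs, d15 was compared with d10 and clone JN with clone A9. By edgeR's quasi-likelihood test over 22452 transcripts, 0 of 10 genes and 0% of all transcripts passed between the days, with 304 transcripts at an unadjusted p under 0.05, and DESeq2 called 0 of the 10 too. Fgf5, alone of the 10 genes, was among the 304 (log2 -1.47 ± 0.42 SE, adjusted p = 1.0), and its RPKM at d15 was 0.355 of that at d10 in A9 and 0.375 in JN. Otx2 (0.720 and 0.629), Sall4 (0.742 and 0.629), Lin28a (0.468 and 0.704) and Klf2 (0.827 and 0.593) were also lower at d15 in both clones, and Klf4 (4.30 and 1.20) and Tfcp2l1 (1.18 and 1.38) higher, in the order A9 and JN. Klf5, Esrrb and Pou3f1 moved in opposite directions in the 2 clones. With clone as a term in this test, which pairs the days, 0 of 10 genes and 0 of all transcripts passed. Fgf5 then had log2 -1.47 ± 0.26 SE (unadjusted p = 0.00256, adjusted p = 0.407). Lin28a (unadjusted p = 0.00696), Sall4 (0.0253) and Otx2 (0.0413) were also under 0.05 before adjustment in that fit.

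Each clone is a single ES line with 1 library per day. The p-values between clones thus rest on the spread within a line and do not measure the spread between lines. Clone, sex and library protocol also coincide. Between the clones 0 of 10 genes passed, where 7.90% of all transcripts were higher and 4.64% lower in JN. Klf2 came nearest (log2 1.59 ± 0.41 SE higher in JN, adjusted p = 0.0559), with JN over A9 ratios of RPKM of 3.58 at d10 and 2.57 at d15, and Pou3f1 was next (1.58 ± 0.60, adjusted p = 0.128), with ratios of 5.79 and 1.32. With day as a term Klf2 passed (1.53, adjusted p = 0.0455), in a fit where 10.1% of all transcripts were higher in JN. With DESeq2, where 13.4% were higher, both Klf2 (adjusted p = 0.00378) and Pou3f1 (0.0403) did. Klf4 passed as lower in JN without d10 A9 (-2.0, adjusted p = 0.00344), where d15 A9 is the only A9 library left. The 5 germ cell markers summed to 20.1 (d10) and 13.9 (d15) RPKM in JN and 5.71 (d10) and 4.51 (d15) in A9. Of this, Dppa3, which is also among the naive and core genes below, held 10.8 and 6.49 in JN and 1.04 and 0.577 in A9. Ddx4, Dazl and Mael were also higher in JN on both days, while Prdm1 was higher in A9 (3.09 and 1.78 against 1.56 and 1.42). The part of these markers in the values above was not tested.

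**Figure D3:**
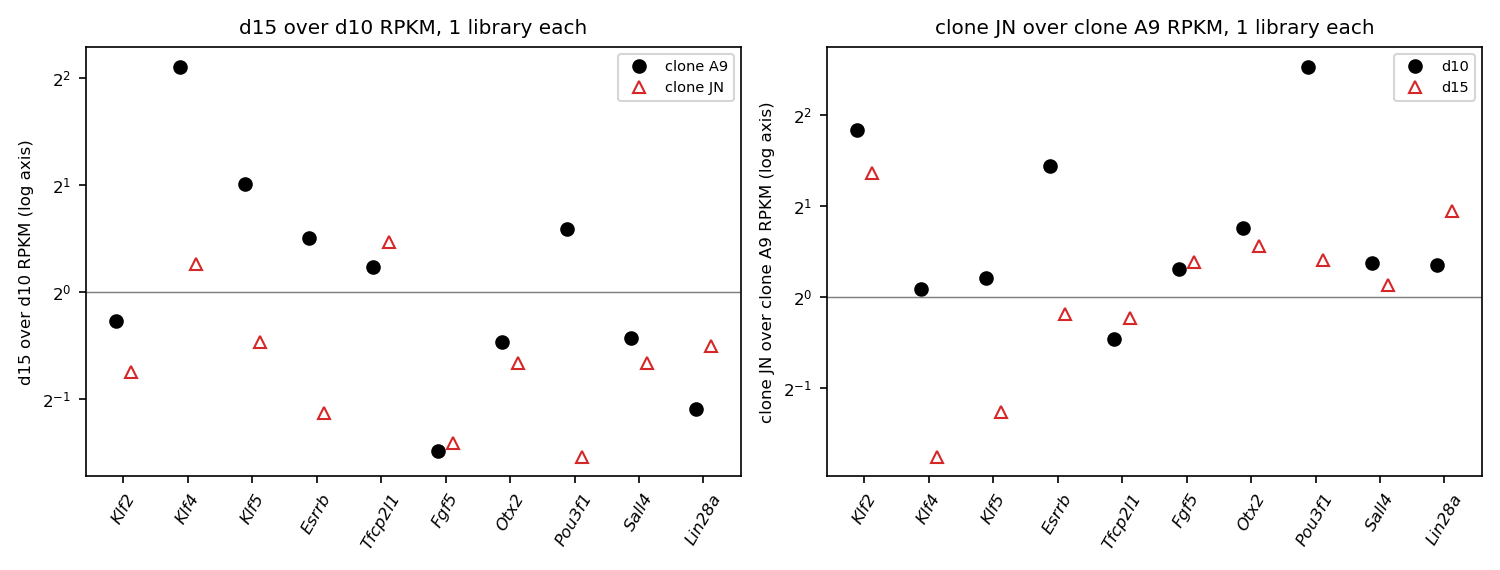
Ratios of RPKM (log axis) within cystic EBs for the 10 genes, d15 over d10 in each clone (left) and JN over A9 on each day (right), each from 1 library per clone and day. For d15 over d10, Fgf5 lies at 0.355 (A9) and 0.375 (JN) and Klf4 at 4.30 (A9) and 1.20 (JN).

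Other genes of the same circuits were taken from 4 lists. Of all transcripts, 27.1% were higher and 23.2% lower in EBs than in E9.25 ysE, 21.1% and 18.8% than in E12.5 ysE, 24.6% and 20.9% than in liver and 13.9% and 15.0% than in mesoderm, beside which the counts of these lists stand. Of 20 further genes of naive and core pluripotency, 15 were higher and 0 lower in EBs than in E9.25 ysE (median log2 4.98), 16 and 1 than in E12.5 ysE, 17 and 1 than in liver and 18 and 0 than in mesoderm. Pou5f1, the POU factor at the centre of the network, measured 53.4 (A9) and 76.8 (JN) RPKM at d10 and 64.6 (A9) and 39.1 (JN) at d15, and at most 0.130 in any tissue. Tdgf1, the Nodal co-receptor Cripto, measured 31.2 to 58.1 in EBs and at most 0.072 in tissues, and Nr0b1, a nuclear receptor of ES cells, 1.99 to 6.24 and at most 0.015, with no read in E9.25 ysE. Of 15 genes of primed and formative epiblast, 13 were higher and 2 lower in EBs than in E9.25 ysE (median log2 6.08), 11 and 1 than in E12.5 ysE, 14 and 0 than in liver and 13 and 0 than in mesoderm. T (Brachyury), the T-box factor of the primitive streak, measured 1.24 to 11.2 RPKM in EBs and Cer1, a secreted Nodal antagonist, 0.130 to 1.38, with at most 0.032 in any tissue for each. The study counted Cer1 as a marker of definitive endoderm and of embryonic visceral endoderm, so its level cannot be assigned to epiblast. The 2 lower genes were Cldn6 (log2 -2.23, adjusted p = 0.00395), a tight junction protein, and Etv5 (-2.0, adjusted p = 0.0148), an ETS factor, both named after their values were seen.

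Between the clones, 5 of the 20 naive and core genes were higher in JN and 0 lower (median log2 1.07), where 7.90% and 4.64% of all transcripts were, namely Dppa3, Dppa5a, Nanog, Tcl1 and Dppa2, named after their values were seen. Of 15 primed and formative genes 2 were higher in JN and 0 lower, Etv5 and Nodal, also named after their values were seen. Here too each clone is a single line, and clone, sex and protocol coincide.

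Lin28a restrains let-7, and 8 genes repressed by let-7 or acting with it were followed. In EBs against E9.25 ysE 2 were higher and 1 lower (median log2 -0.28), which is not above the shares of all transcripts (27.1% and 23.2%). Against E12.5 ysE 5 were higher and 1 lower (21.1% and 18.8% of all), against liver 3 and 0 (24.6% and 20.9%) and against mesoderm 3 and 0 (13.9% and 15.0%). Lin28b, the paralog of Lin28a, measured 15.7 (A9) and 14.9 (JN) RPKM at d10, 5.13 (A9) and 10.5 (JN) at d15, 0.403 and 0.409 in E9.25 ysE, 0.043 in E12.5 ysE, 5.43 and 6.15 in mesoderm and 11.8 and 12.498 in liver. E9.25 ysE had the highest mean level of Lin28a and, after E12.5 ysE, the lowest of Lin28b, while liver had the lowest of Lin28a and the highest of Lin28b outside EBs. Against E9.25 ysE, Lin28b was higher in EBs by log2 4.37 ± 0.46 SE (adjusted p = 1.04e-04) and Hmga2, a chromatin protein and let-7 target, by 4.24 ± 0.50 (adjusted p = 1.70e-04), while Igf2bp3, an RNA-binding protein, was lower (-0.77 ± 0.20, adjusted p = 0.0115).

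Of 25 paralogs of the 10 genes, 24 were tested, and 9 were higher and 5 lower in EBs than in E9.25 ysE (median log2 0.46), where 27.1% and 23.2% of all transcripts were, 4 and 2 than in E12.5 ysE, 14 and 6 than in liver and 9 and 1 than in mesoderm. Fgf4, the growth factor of the naive epiblast, measured 3.95 to 9.85 RPKM in EBs and at most 0.026 in tissues, and Pou3f4 0.080 to 0.204, with no read in E9.25 ysE. Esrra, an estrogen-related receptor like Esrrb, was lower in EBs (log2 -2.84 ± 0.19, adjusted p = 1.83e-05, named after its values were seen). Lin28b and Fgf4 are each on 2 lists.

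The 2 genes most like each of the 10 by Pearson's r of log2(RPKM + 1) over the 11 libraries, which share tissue, protocol and depth, are given as a description. They were Ptgds (r = 0.999) and Glt1d1 (0.997) for Otx2, Gpa33 (0.991) and Nr0b1 (0.990) for Esrrb, 9430041J12Rik (0.996) and Kirrel2 (0.995) for Pou3f1 and Ccdc85a (0.995) and Ccdc40 (0.991) for Fgf5. These are genes near 0 outside EBs, and those of Pou3f1 and Fgf5 reached at most 0.890 RPKM. Soat1 (0.992) and Sgpl1 (0.991) were most like Tfcp2l1, and Soat1, an enzyme of cholesterol ester synthesis, measured 58.0 to 86.8 RPKM in EBs, 62.2 and 64.8 in E9.25 ysE, 31.3 in E12.5 ysE and 14.95 to 22.03 in mesoderm and liver. For Lin28a they were Id1 (0.983) and Slc2a3 (0.982), a glucose transporter with 1328 and 1504 RPKM in E9.25 ysE and 258 to 549 in EBs. For Sall4 they were the hairpins Mir294 (0.973) and Mir293 (0.962) of the ES cell miRNA cluster, which measured 3.59 and 4.58 and 6.70 and 13.0 RPKM in E9.25 ysE, whose short length makes RPKM uncertain. For Klf2 they were Mapk12 (0.982) and 2210416O15Rik (0.981), for Klf4 Slc35f1 (0.989) and Dmrtc1b (0.980) and for Klf5 Bhlhe40 (0.982) and Mkx (0.973). Among the 10 genes themselves, Esrrb and Otx2 were most alike (r = 0.980) although they belong to different states, and Klf4 and Lin28a least (0.109).

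CpG methylation was given by whole genome bisulfite sequencing of the 6 CxF and FxC libraries. Values are methylated over all reads, counted at each CpG within 1 kb of a start and summed. A sequencing read that spans several CpGs is thus counted at each of them, here and for gene bodies. The 95% Wilson intervals take these counts as independent, so they can be too narrow even for counting error, which is all they cover. Over all promoters with at least 5 reads the median was 40 to 42.9% in ysE, 59.4 to 62.5% in liver and 68.4 to 75.0% in EBs. The depth was low, a mean of 1.80 to 2.21 reads per call, and no test between tissues was made.

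At the Otx2 start shown above, 13 of 14 reads were methylated in ysE CxF (92.9%, interval 68.5 to 98.7%) and 20 of 34 in ysE FxC (58.8%, 42.2 to 73.6%). In liver 1 of 16 (6.25%, 1.11 to 28.3%) and 2 of 11 (18.2%, 5.14 to 47.7%) were methylated, and in EBs 0 of 25 (0%, which allows up to 13.3%) and 5 of 11 (45.5%, 21.3 to 72.0%). Both ysE libraries were above the other 4, while over all promoters ysE had the lowest medians. The intervals of both ysE libraries overlap that of EB FxC, and the interval of ysE FxC also overlaps that of liver FxC. The second Otx2 start, within the same 1 kb, had 13 of 15 (86.7%) and 20 of 31 (64.5%) in ysE. At the third, farther into the gene, 4 of 29 reads (13.8%) were methylated in ysE CxF and 4 of 25 (16%) and 0 of 22 in liver, with no read there in ysE FxC. Fgf5, also near absent from ysE RNA, had 1 of 15 methylated reads in ysE CxF (6.67%, 1.19 to 29.8%) and 2 of 50 in FxC (4.0%, 1.10 to 13.5%), and fewer than 10 reads in each other library. Lin28a, at 18.9 RPKM in E12.5 ysE, had 0 of 33 (0%, up to 10.4%) in ysE CxF, and 2 of 12 (16.7%) and 2 of 15 (13.3%) in EBs. Klf4 had 3 of 11 (27.3%) in ysE FxC, 2 of 12 (16.7%) in liver CxF and 5 of 16 (31.3%) and 3 of 9 (33.3%) in EBs. The first start of Esrrb had 15 of 25 (60%) and 3 of 5 (60%) in ysE, 8 of 11 (72.7%) and 7 of 7 (100%) in liver and 15 of 17 (88.2%) in EB CxF. Its second start had 22 of 27 (81.5%) in EB CxF but 1 of 5 (20%) in EB FxC, 3 of 22 (13.6%) in liver CxF and 5 of 6 (83.3%) and 2 of 5 (40%) in ysE. Klf2 and Tfcp2l1 had at most 12 reads in any library.

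Methylated reads were also summed over whole gene bodies. No value over all genes is given beside them. The study reported less methylation of exons, introns and UTRs in ysE than in liver and EBs, and a genome-wide level in EBs slightly above that of liver. That order at a gene below is therefore not particular to it. Esrrb had 67.0% ± 3.3 (SD, n = 2) in ysE, 74.3% ± 4.2 in liver and 81.9% ± 2.0 in EBs, and Tfcp2l1 75.6% ± 2.7, 78.7% ± 5.6 and 85.4% ± 5.1. Klf5 had 73.8% ± 4.2, 82.1% ± 0.63 and 77.3% ± 1.1, and Fgf5 46.5% ± 17.6, 69.7% ± 9.9 and 76.2% ± 3.3. Sall4 had the reverse order, 68.2% ± 3.3, 63.5% ± 0.82 and 56.6% ± 6.6, and Lin28a was lowest in ysE with 39.1% ± 9.4 against 67.1% ± 13.2 and 56.0% ± 16.9. Otx2 was highest in ysE with 55.9% ± 14.3 against 40.3% ± 21.7 and 36.5% ± 3.7, within the spread of libraries. Pou3f1 had 28.6% ± 13.0, 4.13% ± 0.30 and 43.9% ± 24.4. Klf4 had 45 to 56 reads per tissue and Klf2 4 to 36, too few to order.

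H3K4me3, a histone mark of active and poised starts, was measured in 1 library of whole E12.5 VYS, which holds both layers. Of the 7 genes with a listed start, 6 had a peak within 1 kb of any of their listed starts. Esrrb, among the 6, had none at its first start. Of all genes, 45.4% had a peak, counted at the first listed start only, so these shares cannot be compared directly. The score is the negative log10 of the p-value of MACS times 10. Lin28a had a score of 3100, a tied value near the top of the scale that 5262 of all 22343 peaks (23.6%) share and 267 exceed, in a peak at chr4:134016719-134019215. Tfcp2l1 had 1437, Klf4 1223 and Klf2 1026, above the median of 863, and Esrrb (at its second start only) 406 and Fgf5 356, below it. Otx2 had none at any of its 4 starts or over the gene. Of the genes without a listed start, Klf5 had a peak of 3100 over the gene or within 1 kb, Sall4 2301 and Pou3f1 55.5.

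**Figure D4:**
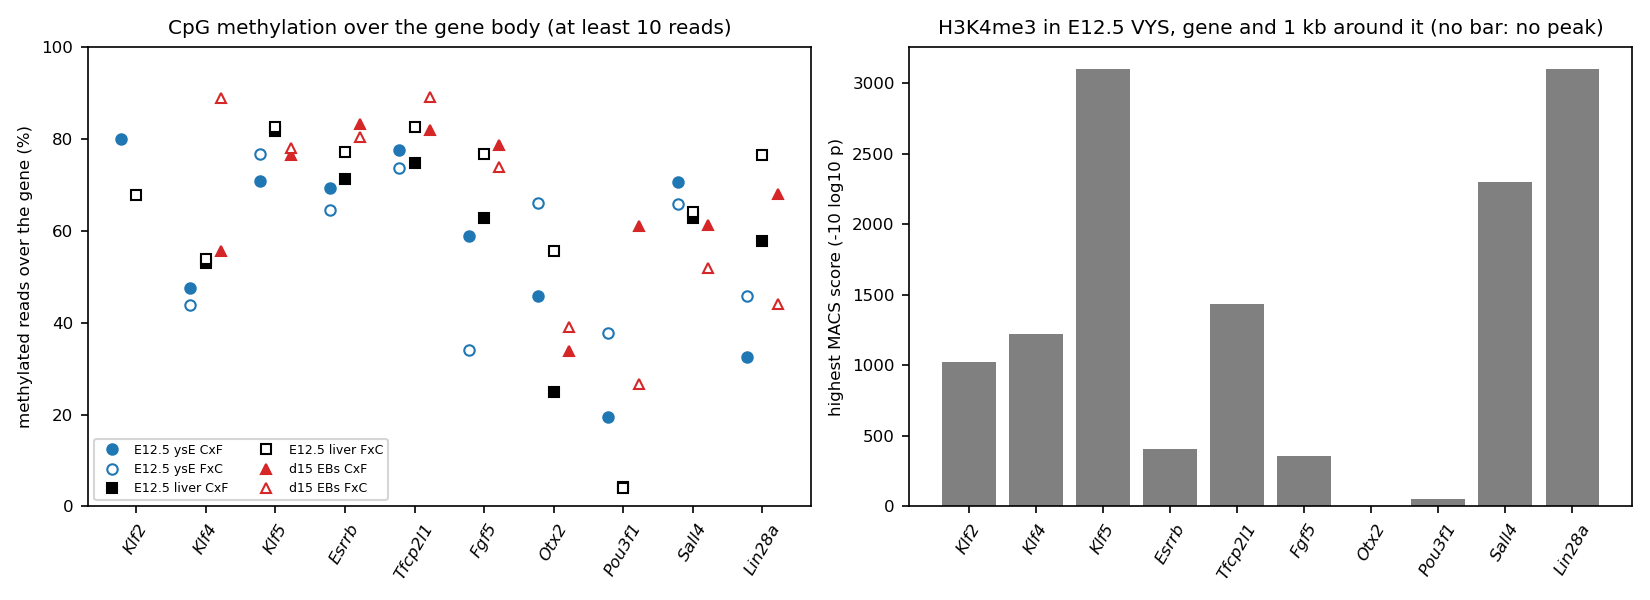
Left, methylated reads over the gene body (%) for each library with at least 10 reads. Right, the highest H3K4me3 score over each gene and 1 kb around it in E12.5 VYS. Otx2 has no peak, and Lin28a and Klf5 share the score of 3100.

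Reads over exon parts, which the authors counted for Ensembl genes, were available in the 4 EB libraries and E9.25 ysE A. Otx2 had reads on 19 of 19 parts in each EB and 2 reads on 1 part in ysE. Lin28a had reads on 10 of 11 parts in all 5 libraries. Esrrb had reads on 11 to 15 of 17 parts in EBs and 8 in ysE, and Sall4 on 12 of 16 in all 5. The parts of Tfcp2l1 are merged with an overlapping gene and had reads on 17 of 17 in all 5. Parts 2 and 3 of Lin28a held 0.437% and 1.45% of its reads in d10 A9 and 3.8% and 6.92% in d10 JN, against 3.83% and 6.89% in ysE A. At d15 they held 0.435% and 1.48% in A9 and 3.76% and 7.01% in JN. Such a difference is not particular to Lin28a. Part 1 of Klf4 held 74.9% in d10 A9, 47.7% in d10 JN and 47.8% in ysE A, and part 2 of Klf5 69.3%, 40.9% and 43.3%. These parts were named after their values were seen. The A9 libraries were made with ScriptSeq and those of JN and ysE A with dUTP, and the part of the protocol in these values was not tested.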

How the data were processed

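RNA-seq reads were aligned by the authors to mm10 with GSNAP and counted per RefSeq transcript, and the deposited counts and the deposited RPKM were used as given. Exon-part counts were deposited for DEXSeq, and the file of E9.25 ysE B, all at 0, was not used, nor was the table of repeats. CpG methylation was deposited as percent with read counts (BisSNP, low coverage settings). H3K4me3 peaks carry the score the authors obtained with MACS 1.4.2 against input, the negative log10 of its p-value times 10.

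Counts were tested with edgeR 4.0.16 (quasi-likelihood, TMM, R 4.3.3) with all 11 libraries in 5 groups, the EBs of both days and clones as 1 group, or with the 4 EB libraries for day and clone, after its filter on low counts (24858 and 22452 transcripts). DESeq2 1.42.0, limma 3.58.1 on log2(RPKM + 1), other scalings, filters and left-out libraries were alternatives. The fit was checked on simulated counts. Letters A and B name clones A9 and JN in EBs and so pair d10 with d15 (the deviations of same-clone libraries from the day means correlated at 0.685 over 22452 transcripts). Genes beside the 10 were named as the 3 largest changes past the threshold against E9.25 ysE in each list and the 2 most alike in profile. A gene that this rule names is not reported here. The members and lists were chosen with earlier results of these data known.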

Additional observations from a re-analysis of the deposited data

Results flagged for a closer look

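Klf4 in the d15 A9 library (15.1 RPKM) stood apart from the other 3 EB libraries (3.50 to 4.45 RPKM), with a gap of 0.918 of the range of the 4, above Dixon's 95% critical value. Of the 10 genes, 1 was marked in this way, and chance marks about 1 in 20 groups. The same library had the highest sum of trophoblast markers among EBs (121 RPKM against 18.9 to 42.0), of which Krt7 held 69.4. The part of this sum in the level of Klf4 was not tested. In ysE that sum was 81.3 to 321 RPKM, of which Krt7 held 75.4 to 319, with Klf4 at 0.472 to 0.572 RPKM.

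For 3 genes the ratio of d15 to d10 RPKM had opposite directions in the clones, each from 1 library per clone and day, and the difference was not tested. Klf5 had a ratio of 2.0 in A9 and 0.723 in JN, Esrrb 1.41 and 0.457, and Pou3f1 1.5 and 0.343.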

How the results depend on the processing

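Counts below are of the 10 genes called. The share of all transcripts called under each setting is not given here, so a change in count cannot be read as particular to these genes. The tally covers the 58 pairs of gene and comparison called in some setting, with 614 settings where the main fit or the alternative called the gene. Direction and call were the same in 550, a call was lost in 50 and gained in 14, and a called direction was reversed in 0. Against E12.5 ysE the count fell from 9 to 5 with only the groups compared, and to 5 at an FDR of 1%. From E9.25 to E12.5 ysE Klf5 and Esrrb were called too, as higher at E12.5, with only the groups compared. Between the clones the count was 0, but 2 with DESeq2, 1 without the filter on low counts and 1 with day as a term. Leaving out 1 library gave 6 to 8 against E9.25 ysE, 9 against E12.5 ysE, 8 to 10 against liver, 4 to 9 against mesoderm, 3 to 6 between ysE and mesoderm, 0 to 3 between the ysE stages, 4 to 5 between E12.5 ysE and liver, 0 between days and 0 to 1 between clones. A lone library left in a group was assumed to vary like the other groups. With the replicate block (letter A or B) counts stayed at 8 against E9.25 ysE, 10 against liver, 8 against mesoderm, 6 between ysE and mesoderm and 0 between days, where it pairs the clones. The labels do not say whether E9.25 ysE and mesoderm of the same letter came from the same litters. The main fit did not pair them. Library totals without scaling factors were an alternative added after the data were seen. By limma on RPKM, genes called between E12.5 ysE and liver went from 2 to 4 with a pseudocount of 0.1. Starts with over 50% methylation went from 6 of 11 to 2 of 6 in ysE and from 2 of 8 to 0 of 4 in liver with 500 bases to either side in place of 1 kb, where fewer starts had 5 reads, and were 3 of 10 and 2 of 7 in EBs. The share of all promoters over 50% was 42.3 and 38.2% (ysE libraries), 55.5 and 59.5% (liver) and 66.7 and 62.4% (EBs). Other causes were not tested. Depth limits Fgf5 in ysE and Otx2 in all tissues, at 11 reads or fewer, Pou3f1 in tissues, at 43 reads or fewer, and methylation at single starts.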
